A study of Homo sapiens with 8 samples.

Results

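The miR-183, miR-96 and miR-182 cluster is a run of 3 miRNA hairpins on the minus strand of chromosome 7. Its members were chosen by name as hsa-miR-183-5p, hsa-miR-183-3p, hsa-miR-96-5p, hsa-miR-182-5p and hsa-miR-182-3p, which are 5 of the 2006 human miRNAs on the array. They were measured with one-colour miRNA arrays in 2 HER2+ breast cancer cell lines, BT474, a luminal B line labelled ER+, PR+ and HER2+, and SKBR3, labelled ER-, PR+ and HER2+ although the methods of the study describe it as PR-. Cells of each line received either trastuzumab, an antibody against HER2, at 6 μg/mL or PBS as the control, for 144 h, and each of the 4 groups is labelled with 2 biological replicates. The file labelled SKBR3 PBS replicate 1 repeats the file of BT474 PBS replicate 1 in each of its 62344 spots. It was therefore left out, 7 distinct arrays were used, and SKBR3 PBS is represented by replicate 2 alone. All arrays were on 1 slide, with PBS in slide row 2 and trastuzumab in slide row 1, so that the effects of treatment and slide row cannot be told apart. The BT474 arrays lay in slide columns 1 and 2 and the distinct SKBR3 arrays in columns 3 and 4, so that the effects of cell line and slide column cannot be told apart either. The arrays detected 247 and 254 miRNAs in BT474 PBS, 248 and 256 in BT474 trastuzumab, 203 in SKBR3 PBS and 218 and 201 in SKBR3 trastuzumab. With so few arrays the precision of every value is limited.

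The cluster is transcribed as a single primary RNA, from which each hairpin is released and then processed into a 5p and a 3p mature arm. It is best known from sensory cells of the ear and eye, where its expression is high, and it is raised in many carcinomas, those of the breast included. The 5p arms are the abundant products. FOXO1, a transcription factor that restrains cell division, is a known target of miR-96-5p and miR-182-5p in breast cancer cells.

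In the GRCh38.p14 annotation of RefSeq the hairpin of MIR183 lies at chr7:129774905-129775014, that of MIR96 at chr7:129774692-129774769 and that of MIR182 at chr7:129770383-129770492. Thus 135 bases separate MIR183 from MIR96 and 4199 bases separate MIR96 from MIR182, and the cluster lies in the interval between the genes NRF1 and UBE2H. The mature sequences are shown because the 5p arms, on which the results turn, are related in sequence. They were taken from RefSeq (GRCh38.p14), which held a sequence for 1687 of the 2006 names on the array, and are written 5′ to 3′ with the seed, bases 2 to 8, in capitals.
hsa-miR-96-5p: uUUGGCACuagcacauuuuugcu
hsa-miR-182-5p: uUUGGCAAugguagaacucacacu
hsa-miR-183-5p: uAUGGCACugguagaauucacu
hsa-miR-183-3p: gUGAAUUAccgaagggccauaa
hsa-miR-182-3p: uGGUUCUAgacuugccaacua
Counted from 1 at the 5′ end, the seed of miR-182-5p differs from that of miR-96-5p by C8A, and the seed of miR-183-5p differs from that of miR-96-5p by U2A. The seeds of miR-182-5p and miR-183-5p differ at 2 bases, U2A and A8C. No member therefore shares its whole seed with another member. Among the other matched names on the array, 1 miRNA, hsa-miR-1271-5p, has the seed of miR-96-5p, and it was detected on 0 of the 7 arrays.

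miR-96-5p and miR-183-5p were detected on all 7 arrays. Signals below are the summed signal per miRNA before normalization, in fluorescence units, which the feature extraction software builds from the probes it counts as detected. The signal of miR-96-5p was 5737 and 7553 in BT474 PBS (6645 ± 1284, SD, n = 2), 6788 and 9365 in BT474 trastuzumab (8077 ± 1822, SD, n = 2), 1328 in SKBR3 PBS and 1711 and 1422 in SKBR3 trastuzumab (1567 ± 204, SD, n = 2). The signal of miR-183-5p was 2053 and 2514 in BT474 PBS (2283 ± 326, SD, n = 2), 2155 and 2779 in BT474 trastuzumab (2467 ± 441, SD, n = 2), 358 in SKBR3 PBS and 396 and 380 in SKBR3 trastuzumab (388 ± 11.4, SD, n = 2). For both miRNAs every BT474 array lay above every SKBR3 array, whereas the signals of PBS and trastuzumab overlapped within BT474. The error that the software gives for these signals was between 6.06% and 7.40%.

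**Figure D1:**
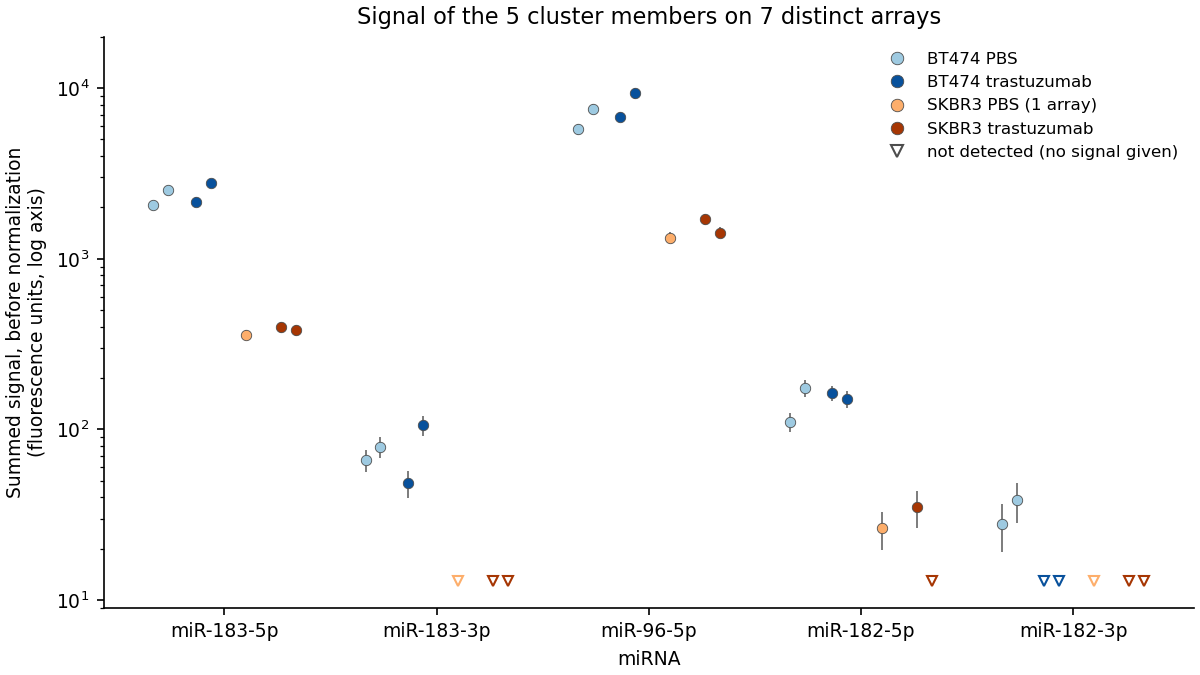
Summed signal of each cluster member before normalization (log axis, fluorescence units), with 1 point per array coloured by cell line and treatment, bars for the error given by the software, and open triangles at an arbitrary height where the member was not detected. miR-96-5p lies between 5737 and 9365 on the BT474 arrays and between 1328 and 1711 on the SKBR3 arrays.

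miR-182-5p, the remaining 5p arm, was much dimmer. Its signal was 110 and 175 in BT474 PBS, 163 and 151 in BT474 trastuzumab, 26.4 in SKBR3 PBS and 35.1 on 1 of the 2 SKBR3 trastuzumab arrays, and it was not detected on the other. The 3p arms were near the limit of detection. miR-183-3p gave 66.0 and 79.3 in BT474 PBS and 48.4 and 106 in BT474 trastuzumab, and was detected on 0 of the 3 SKBR3 arrays. miR-182-3p gave 27.8 and 38.3 in BT474 PBS and was detected on none of the other 5 arrays. The remaining 3p arm, hsa-miR-96-3p, which is on the array but not among the 5 members, was detected on 0 of the 7 arrays. All 5 members were thus detected in BT474. The 3p arms gave no signal to compare in SKBR3, and the 2 SKBR3 signals of miR-182-5p lay below all 4 of BT474. The lowest signal of any detected miRNA on an array was between 19.3 and 28.3.

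Each member was read by 2 or 4 probes of different sequence, and no member had a saturated spot. For miR-96-5p both probes were counted as detected on all 7 arrays, and the mean BT474 signal was 5.02 and 4.90 times that of SKBR3. For miR-183-5p, 3 of its 4 probes were counted on all 7 arrays, with ratios of 6.32, 6.32 and 6.23, and the remaining probe was counted on none. The probes of these miRNAs therefore gave like ratios between the lines, and the lowest BT474 signal of each counted probe was at least 3.29 times its highest SKBR3 signal. For miR-182-5p the sum was built from 2 or 3 probes on the BT474 arrays, but from 1 probe on each SKBR3 array where it was detected. Its brightest probe gave 84.6 to 119 in BT474 and 16.7 to 35.1 in SKBR3, with 0, 1 and 3 of its 7 spots well above background on the SKBR3 arrays. For miR-182-3p the sum rested on a single probe, with 1 of its 8 spots well above background on the first BT474 PBS array and 2 of 8 on the second.

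**Figure D2:**
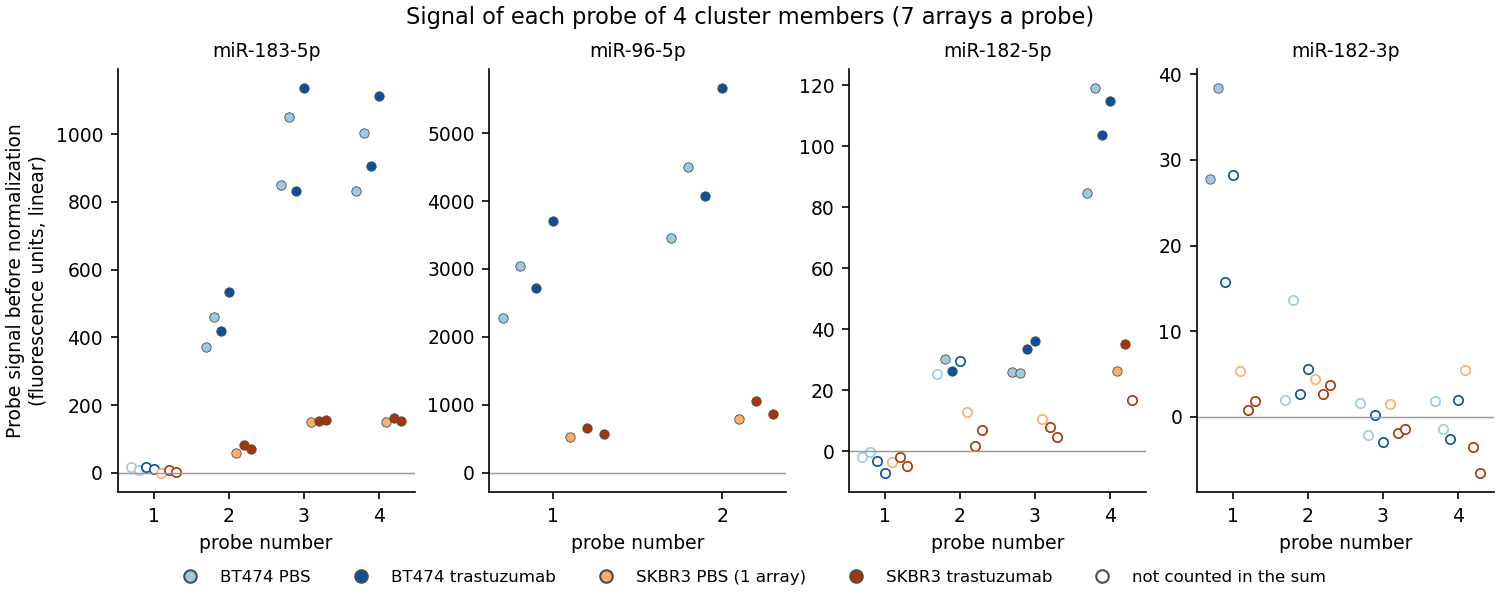
Signal of each probe of 4 members before normalization (linear axes, fluorescence units), with 1 point per array, coloured by cell line and treatment and open where the software did not count the probe in the sum. The counted probes of miR-183-5p and miR-96-5p separate the lines, whereas the points of the single counted probe of miR-182-3p overlap between BT474 PBS and BT474 trastuzumab.

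The lines were compared in limma on log2 signals, after quantile normalization across the 7 arrays and with a floor of 10 beneath the lowest values, SKBR3 minus BT474 averaged over both treatments. On this scale miR-96-5p was at 12.38 and 12.43 in BT474 PBS, 12.52 and 12.59 in BT474 trastuzumab, 11.17 in SKBR3 PBS and 11.17 and 11.22 in SKBR3 trastuzumab. It was 2.46-fold lower in SKBR3 (log2 difference -1.30 ± 0.040, SE, 95% confidence interval -1.41 to -1.19, limma adjusted p = 6.50e-05). miR-183-5p was at 11.02 and 10.97 in BT474 PBS, 10.72 and 10.72 in BT474 trastuzumab, 9.51 in SKBR3 PBS and 9.07 and 9.21 in SKBR3 trastuzumab. It was 2.90-fold lower in SKBR3 (log2 difference -1.53 ± 0.051, SE, 95% confidence interval -1.68 to -1.39, limma adjusted p = 7.70e-05). The difference was present within each treatment, at -1.24 with PBS and -1.36 with trastuzumab for miR-96-5p, and at -1.49 and -1.58 for miR-183-5p. RNA came from whole cultures, so that fewer cells carrying a miRNA and less of it per cell cannot be told apart.

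All 5 members passed the filter on low values, which needs 1 array above the floor, miR-183-3p and miR-182-3p through BT474 alone. In limma, 4 of the 5 were called lower in SKBR3 at an adjusted p under 0.05, miR-96-5p, miR-183-5p, miR-183-3p and miR-182-3p, the last 2 only against the floor. The lines differed broadly, since 68.5% of the 305 miRNAs tested were called in either direction and 33.4% were called lower in SKBR3, so that the number of members called says little by itself. Among the 173 miRNAs detected on all arrays, counted from the most negative difference, miR-183-5p ranked 9th and miR-96-5p 13th. Among all 305 tested, which include miRNAs not detected in SKBR3, they ranked 57th and 70th.

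**Figure D3:**
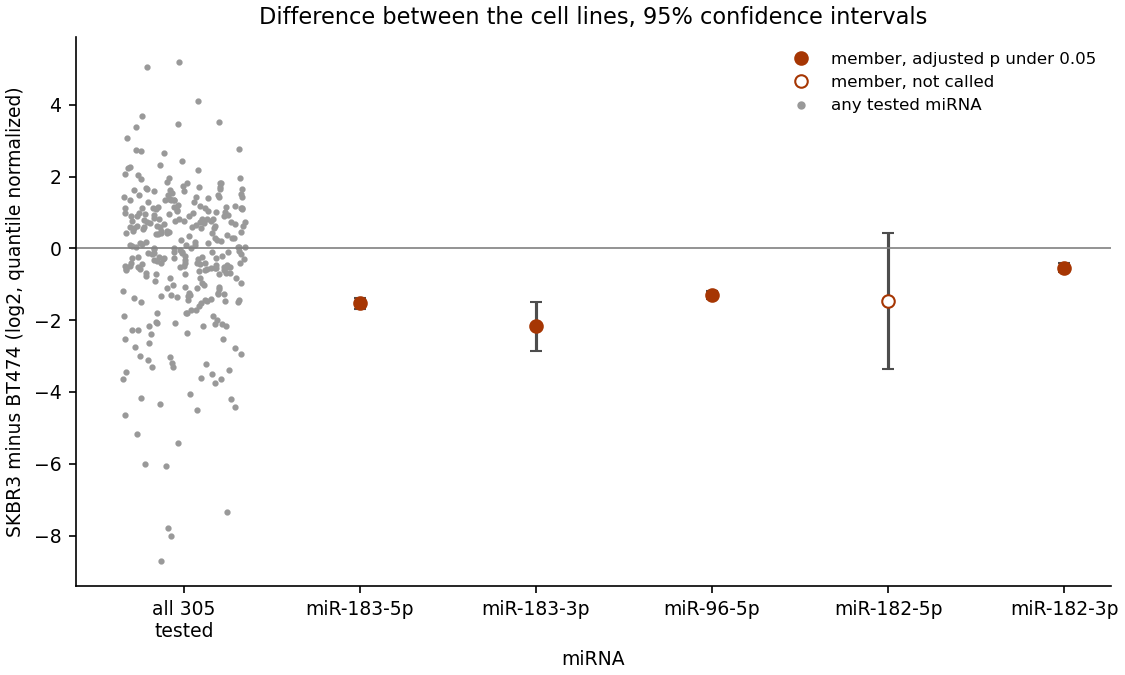
Difference between the cell lines on the quantile normalized log2 scale, SKBR3 minus BT474, for all 305 miRNAs tested (grey points, spread sideways at random) and for each member with its 95% confidence interval. Members called at a limma adjusted p under 0.05 are filled, and miR-182-5p, at -1.47 with an interval that includes 0, is open.

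The size of the difference depended on the scaling. The median difference of the 173 miRNAs detected on all arrays was 0.42 after quantile normalization, 0.20 after scaling to the 75th percentile and -0.71 with no scaling. With no scaling miR-183-5p differed by -2.66 and miR-96-5p by -2.33, and of the 186 miRNAs then called 21 were higher in SKBR3, against 107 of 209 after quantile normalization. Relative to the median, miR-183-5p lay at -1.95 and miR-96-5p at -1.72 after quantile normalization. With no scaling they lay at -1.95 and -1.62, and 75th percentile scaling gives the same values by construction, as it shifts every miRNA of an array alike. Both members were lower in SKBR3 with and without normalization.

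For the dim members the same test was less certain. miR-182-5p differed by -1.47 (SE 0.67, 95% confidence interval -3.37 to 0.43, limma adjusted p = 0.124), with values of 6.48 and 7.04 in BT474 PBS, 7.05 and 6.59 in BT474 trastuzumab, 6.21 in SKBR3 PBS and 5.54 and the floor of 3.32 in SKBR3 trastuzumab. It was called under 6 of 16 alternatives, among them scaling to the 75th percentile (-1.98, adjusted p = 0.0473 in limma), no scaling (-2.73, adjusted p = 0.0136 in limma) and leaving out SKBR3 trastuzumab replicate 1 (-2.07, adjusted p = 0.0163 in limma), and its adjusted p ranged from 6.79e-05 to 0.287 over the alternatives. Without SKBR3 trastuzumab replicate 2, the array at the floor, the difference was -0.83 (adjusted p = 0.102 in limma). The fitted differences of miR-183-3p (-2.17, limma adjusted p = 0.00256) and miR-182-3p (-0.54, limma adjusted p = 0.00110) were set by the floor, because all SKBR3 arrays lay there. No fold is given for them, since their BT474 means of 5.66 and 5.33 for miR-183-3p, with PBS and with trastuzumab, and of 4.40 for miR-182-3p with PBS lay below the lowest normalized level of a detected miRNA in SKBR3, which was 6.01 on the PBS array and averaged 5.84 on the trastuzumab arrays. Before normalization miR-183-3p was at least 3.75-fold lower in SKBR3 with PBS and at least 2.60-fold lower with trastuzumab, where the bright mean is set against the lowest signal of a detected miRNA on each SKBR3 array or the brightest probe of the miRNA, whichever is higher. The 2.60 includes a second probe counted on BT474 trastuzumab replicate 2 alone. There the sum was 106, whereas the probe counted on every BT474 array gave 72.9. With that probe alone the bound would be lower. Neither bound allows for the lower signal of the SKBR3 arrays as a whole. With no scaling the median difference of the 173 miRNAs detected on all arrays was -0.71.

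The effect of trastuzumab was then compared within each line. In BT474 cells, 1 of the 5 members, miR-182-3p, was called in limma, where 24.3% of the 305 miRNAs tested were called, 13.8% higher and 10.5% lower. In SKBR3 cells 0 of the 5 were called in limma, where 11.8% were, 6.23% higher and 5.57% lower. An unadjusted p under 0.05 in limma was found for 3 of the 5 members and 112 of the 305 miRNAs in BT474, and for 1 member, miR-183-5p, and 69 miRNAs in SKBR3. The counts of all called miRNAs moved with single arrays: without SKBR3 trastuzumab replicate 1 or replicate 2 the BT474 count of 74 became 49 or 44, and the SKBR3 count of 36 became 16 without BT474 PBS replicate 1, 21 without BT474 PBS replicate 2 and 20 without SKBR3 trastuzumab replicate 1.

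The bright members differed little after trastuzumab. In BT474 cells miR-183-5p differed by -0.27 (SE 0.065, 95% confidence interval -0.46 to -0.091, limma adjusted p = 0.0558), and both trastuzumab arrays lay below both PBS arrays on the normalized scale, although their signals overlapped before it. In SKBR3 cells it differed by -0.37 (SE 0.079, 95% confidence interval -0.60 to -0.15, limma adjusted p = 0.0714), again with both trastuzumab arrays below the PBS array. These values lay close to the threshold, and their call moved with single arrays and with the processing. In BT474 trastuzumab, miR-183-5p signals of 2155 and 2779 took the same normalized value, 10.72, so that the SE holds none of their difference. In limma the BT474 value was called without SKBR3 trastuzumab replicate 1 (-0.26, adjusted p = 0.0447) and without SKBR3 trastuzumab replicate 2 (-0.27, adjusted p = 0.0344). The SKBR3 value was -0.44 without SKBR3 trastuzumab replicate 2, where 1 array is set against 1 and the spread comes from the other groups. With all 7 arrays, limma called the BT474 value after normexp background correction (-0.32, adjusted p = 0.0498), and both values when the test was limited to miRNAs detected on every array (adjusted p = 0.0355 in BT474 and 0.0483 in SKBR3). Over the alternatives the adjusted p in limma and in the methods' test ranged from 0.0344 to 0.989 for BT474 and from 0.0254 to 1 for SKBR3. miR-96-5p differed by 0.15 in BT474 cells (SE 0.051, 95% confidence interval 0.0058 to 0.29, limma adjusted p = 0.123) and by 0.025 in SKBR3 cells (SE 0.062, 95% confidence interval -0.15 to 0.20, limma adjusted p = 1).

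The direction of these small differences also moved with the scaling. In BT474 cells the difference of miR-183-5p became 0.11 with no scaling and that of miR-96-5p became -0.17 after scaling to the 75th percentile, while the median difference of the 173 miRNAs detected on all arrays was 0 after quantile normalization, -0.23 after 75th percentile scaling and 0.22 with no scaling. In SKBR3 cells the same medians were -0.10, 0.18 and 0.36, and miR-183-5p became 0.12 with no scaling. Relative to the median miR-183-5p lay at -0.27 in BT474 and -0.27 in SKBR3 after quantile normalization, and at -0.12 and -0.24 with no scaling, for which 75th percentile scaling again gives the same values by construction. miR-96-5p lay at 0.15 and 0.13 after quantile normalization and at 0.052 and -0.12 with no scaling. Of the miRNAs called in BT474, 42 were higher and 32 lower after quantile normalization, but 22 higher and 53 lower after 75th percentile scaling, and 15 higher and 10 lower with no scaling. In SKBR3 the split was 19 to 17, 26 to 7 after 75th percentile scaling and 13 to 7 with no scaling.

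**Figure D4:**
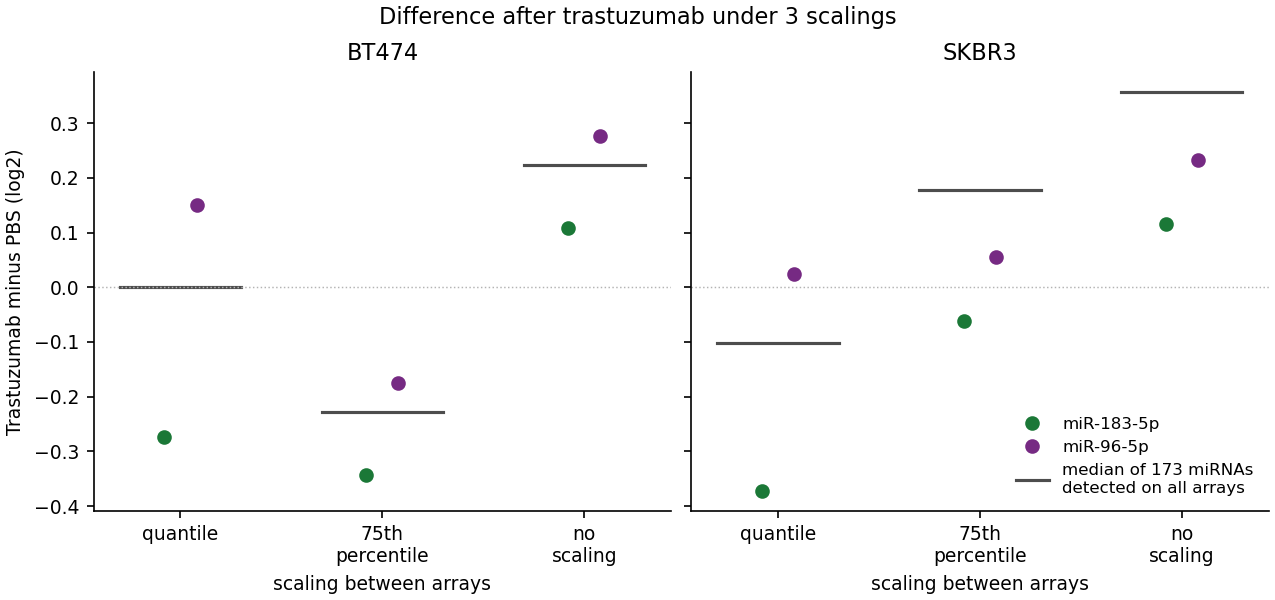
Difference between trastuzumab and PBS (log2) of miR-183-5p and miR-96-5p in each cell line under 3 scalings between arrays, with the median of the 173 miRNAs detected on all arrays as a bar. miR-183-5p lies below the median in each panel, at a distance that is the same by construction with 75th percentile scaling and no scaling, while its own sign turns from -0.27 to 0.11 in BT474.

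The call of miR-182-3p in BT474 (log2 difference -1.08, SE 0.056, limma adjusted p = 0.00263) sets 2 PBS arrays on which it was detected against 2 trastuzumab arrays at the floor. Both trastuzumab arrays held the floor value itself, so that the SE and p do not measure the spread of its level, and no fold is given. The signals of its single counted probe overlapped between the treatments, at 27.8 and 38.3 with PBS and at 15.7 and 28.2 with trastuzumab, the last 2 not being counted as detected by the software. With the signals of all probes summed, detected or not, an alternative chosen after seeing the data, the difference was -0.60 (adjusted p = 0.395 in limma), and without BT474 trastuzumab replicate 2 it was -0.60 (adjusted p = 0.0520 in limma). After normexp background correction it was -0.050 (adjusted p = 0.926 in limma), and the adjusted p ranged from 4.60e-05 to 0.926 over all alternatives. A lower level of miR-182-3p with trastuzumab was therefore not established. miR-183-3p differed by -0.32 in BT474 (SE 0.31, limma adjusted p = 0.522). Without BT474 trastuzumab replicate 2, where 2 of its probes were counted in place of 1, it was called at -0.80 (adjusted p = 0.0158 in limma), and its adjusted p ranged from 0.0158 to 1 over the alternatives. miR-182-5p differed by 0.065 in BT474 (SE 0.85, limma adjusted p = 1) and by -1.78 in SKBR3 (SE 1.04, limma adjusted p = 0.447), the latter with 1 array at the floor. The SKBR3 value was -2.93 without SKBR3 trastuzumab replicate 1, -0.59 without SKBR3 trastuzumab replicate 2 and -0.49 with no scaling, and was not called in any of them.

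A difference in response between the lines, the SKBR3 change minus the BT474 change, was called in limma for 1 of the 5 members, where 16.1% of the 305 miRNAs tested were called, 6.23% higher and 9.84% lower. The member was miR-182-3p (1.08, limma adjusted p = 0.00776), which lay at the floor on all 3 SKBR3 arrays, so that the term repeats its BT474 value and measures no response in SKBR3. Its sign reversed under alternatives that keep probes not counted as detected, at -1.59 with spot means, -0.22 with normexp correction and -0.39 with all probes summed, none of them called. Without BT474 trastuzumab replicate 2 it was 0.60 and not called (adjusted p = 0.0964 in limma), while miR-183-3p, at 0.32 with all arrays (limma adjusted p = 0.693), was then called at 0.80 (adjusted p = 0.0288 in limma). Over all alternatives the adjusted p ranged from 8.23e-05 to 0.669 for miR-182-3p and from 0.0288 to 0.998 for miR-183-3p. miR-183-3p also lay at the floor on all 3 SKBR3 arrays, so that its term of 0.80 restates its BT474 difference of -0.80 and measures no response in SKBR3 either. The term of miR-182-5p was -1.84 (limma adjusted p = 0.450), with 1 SKBR3 trastuzumab array at the floor. It was -2.99 without SKBR3 trastuzumab replicate 1 and -0.66 without SKBR3 trastuzumab replicate 2, fits that set 1 SKBR3 array against 1. For miR-183-5p the term was -0.098 (95% confidence interval -0.39 to 0.19, limma adjusted p = 0.601) and for miR-96-5p it was -0.13 (95% confidence interval -0.35 to 0.10, limma adjusted p = 0.404). After 75th percentile scaling they stood at 0.28 and 0.23, but the median term of the 173 miRNAs detected on all arrays also moved, from -0.091 to 0.41. Relative to the median miR-183-5p lay at -0.0077 and then at -0.13, and miR-96-5p at -0.035 and then at -0.18, so that neither turned positive. All called terms split into 19 higher and 30 lower, but into 35 and 16 after 75th percentile scaling and 14 and 11 with no scaling. The count of 49 became 74 without BT474 trastuzumab replicate 2 and 29 without SKBR3 trastuzumab replicate 1.

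The 2 bright members were also compared with each other within each array. The signal of miR-183-5p over that of miR-96-5p, a measure chosen after the values were seen, was 0.358 and 0.333 in BT474 PBS, 0.317 and 0.297 in BT474 trastuzumab, 0.270 in SKBR3 PBS and 0.231 and 0.267 in SKBR3 trastuzumab before normalization. Every BT474 array lay above every SKBR3 array, with a log2 difference of -0.35 between SKBR3 and BT474 (exact permutation test, two-sided, n = 3 and 4, p = 0.0571). This p is the smallest that these numbers of arrays allow when both tails are counted, so that the test as run could not pass 0.05. Within BT474 both PBS arrays also lay above both trastuzumab arrays. After quantile normalization the lines overlapped when treatments were pooled, with 0.275 to 0.390 in BT474 and 0.234 to 0.317 in SKBR3 (log2 difference -0.30, exact permutation test, two-sided, p = 0.171). Within each treatment they did not overlap, at 0.390 and 0.364 against 0.317 with PBS and at 0.287 and 0.275 against 0.234 and 0.248 with trastuzumab. The test ignores treatment, and a difference in ratio was not tested within treatments. The ratio sets the signals of different probes against each other, so that only its change between arrays carries meaning.

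**Figure D5:**
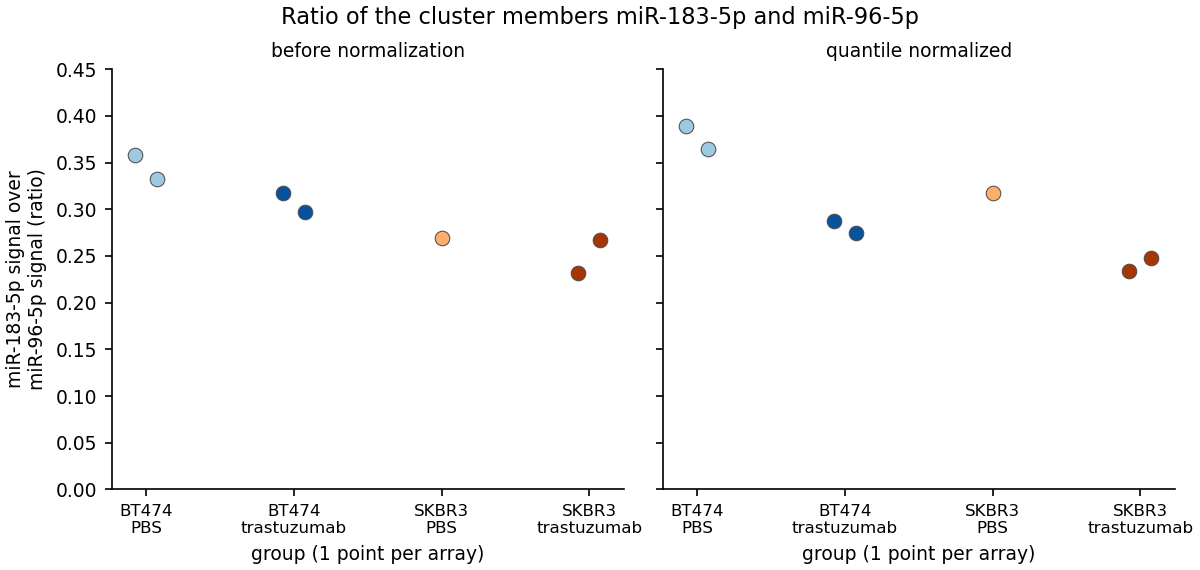
Ratio of the miR-183-5p signal to the miR-96-5p signal within each array, by group, before normalization (left) and after quantile normalization (right), with 1 point per array. Before normalization the BT474 arrays lie between 0.297 and 0.358 and the SKBR3 arrays between 0.231 and 0.270, whereas after it the lines overlap across treatments but not within either treatment.

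The ratio of the arms of a hairpin could be followed for miR-183 in BT474 alone. Across all 7 arrays 7 hairpins had both arms detected, none of them of the cluster, so that its ratio was tested among the 15 hairpins with both arms detected on the 4 BT474 arrays, a set chosen after seeing the data. The log2 ratio of miR-183-5p over miR-183-3p was 5.42 and 5.26 with PBS and 5.80 and 4.98 with trastuzumab, and the groups overlapped. The 4.98 rests on a second miR-183-3p probe that was counted on that array alone. With the probe counted on all 4 arrays, an alternative chosen after seeing the data, the ratios before normalization were 31.1 and 31.7 with PBS and 44.5 and 38.1 with trastuzumab, and the groups did not overlap. For the normalized sums, with the second probe included, the difference was 0.050 (SE 0.31, 95% confidence interval -0.77 to 0.87, limma adjusted p = 0.983), an interval that leaves room for a change in either direction. It was 0.54 without BT474 trastuzumab replicate 2 and -0.35 without BT474 trastuzumab replicate 1, and was not called in either case. The arms of miR-182 were both detected in BT474 PBS alone, and miR-96-3p was never detected, so that no change in their ratios could be measured.

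Likeness to other miRNAs was described over the 7 arrays for the 2 members detected on all of them, as the root mean square difference of log2 profiles centred on their own mean. The profiles nearest to miR-96-5p were those of hsa-miR-193b-3p (0.069), hsa-miR-103a-3p (0.11) and hsa-miR-497-5p (0.12), and those nearest to miR-183-5p were hsa-miR-128 (0.15), hsa-miR-98-5p (0.16) and hsa-miR-103a-3p (0.16). The cluster members themselves differed by 0.25, which placed miR-183-5p 12th among the 172 profiles compared with miR-96-5p and placed miR-96-5p 7th among those compared with miR-183-5p. For comparison, the median was 0.22 over 57 pairs from hairpins within 10 kb of each other on one strand and 0.64 over all 14878 pairs. The pairs share the same arrays, and these values are a description.

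Other miRNAs of the region were read for comparison with the cluster. The array holds 9 further miRNAs whose RefSeq hairpins lie within 2 Mb of it, of which 5 were detected on no array and give no comparison. miR-29a-3p, from a hairpin 1102 kb away on the same strand, had signals of 1116 and 1434 in BT474 PBS, 2614 and 3680 in BT474 trastuzumab, 3014 in SKBR3 PBS and 4656 and 4175 in SKBR3 trastuzumab. It was higher in SKBR3 by 2.04 after quantile normalization (limma adjusted p = 6.13e-05) and by 0.88 with no scaling. hsa-miR-129-1-3p was detected on the 3 SKBR3 arrays alone, with signals of 99.0, 96.6 and 83.8. miR-29b-3p (1.37, limma adjusted p = 0.00688) and hsa-miR-335-5p (0.82, limma adjusted p = 0.00415) were also called higher in SKBR3, but with no scaling they stood at 0.28 and -0.35 and were not called. The median of the 173 miRNAs detected on all arrays moved from 0.42 to -0.71 between these scalings, and both miRNAs lay above it in each. miR-29b-3p is also encoded by MIR29B2 on chromosome 1, and its signal cannot be assigned to either gene.

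The lists of marker miRNAs were read on the same arrays as a check of the cell lines. All 7 epithelial markers were detected on each BT474 array, with summed signals of 32163 and 39244 in PBS and 37391 and 43555 in trastuzumab, whereas 2 of the 7, miR-141-3p and miR-200c-3p, were detected on each SKBR3 array, with sums of 14138, 17623 and 12720. miR-141-3p was the brightest of them on every array, and miR-200a-3p, miR-200b-3p, miR-429, miR-203a and miR-205-5p were not detected in SKBR3. The direction of the other 2 moved with the scaling. After quantile normalization miR-200c-3p was called higher in SKBR3 (0.59, limma adjusted p = 0.000695) and miR-141-3p was not called (-0.032, limma adjusted p = 0.720), whereas with no scaling both were called lower (-0.64, adjusted p = 0.0194 in limma, and -0.79, adjusted p = 0.0276 in limma). Set against the median of the 173 miRNAs detected on all arrays, 0.42 and -0.71 under these scalings, miR-200c-3p lay above and miR-141-3p below it in each. The part of these markers in the result for the cluster was not tested. Of the 4 blood markers 1, miR-451a, was detected on 1 array, BT474 trastuzumab replicate 2, at 57.3. Of the 7 markers of stroma, muscle and endothelium, miR-1 and miR-126-3p were detected, in BT474 alone, with sums of 127 and 241 in PBS and 337 and 470 in trastuzumab, and the other 5 on no array. From the locus of ERBB2, the gene of HER2, miR-4728-3p was detected on both BT474 PBS arrays and miR-4728-5p on all 3 SKBR3 arrays.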

How the data were processed

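Total RNA labelled with Cy3 was hybridized to arrays of miRBase release 19. The authors deposited scanner files of Feature Extraction 11.5.1.1 with the intensity of each spot and, per miRNA, a summed signal and a detection flag (0.1 where not detected). The authors also deposited log2 values per probe, quantile normalized, which served as an alternative. Here summed signals of the 7 distinct arrays were quantile normalized, floored at 10 and fitted as 4 group means with limma 3.58.1 (lmFit, eBayes) in R 4.3.3, with Benjamini-Hochberg adjustment over the 305 miRNAs above the floor on any array. The lone SKBR3 PBS array was assumed to vary like the other groups. Without an SKBR3 trastuzumab array the SKBR3 comparison sets 1 array against 1, and its calls rest on the spread of the other groups. p-values measure the spread between these arrays after normalization, which can give the same value to arrays of unlike signal. The fits were tested on data simulated from the miRNAs detected on all 7 arrays. No floor or normalization was applied to these data, so that calls at the floor were not covered. Tables were made with pandas 2.3.3, scipy 1.17.1 and numpy 2.4.6 in Python 3.11.15 and drawn with matplotlib 3.10.9.

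Named miRNAs were set by a rule: the members; miR-96-3p; miRNAs with a member's seed; miRNAs within 2 Mb; marker lists; and, for each member detected on all arrays, the 3 nearest profiles. The members and lists were chosen with earlier results of these data known. Alternatives covered scaling, background correction, floor, filter, copied array, test, replicate block and each array left out.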

Additional observations from a re-analysis of the deposited data

Results flagged for a closer look

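For hsa-miR-182-3p the fitted SKBR3 change with trastuzumab minus the BT474 change was 1.08 on the log2 scale (limma adjusted p = 0.00776), but this value measures no response in SKBR3, since all 3 SKBR3 arrays held the floor value. The miRNA was detected on the 2 BT474 PBS arrays alone and was not detected on any of the 5 remaining arrays, where it took the floor value, so that 1.08 restates the BT474 difference from the floor. The sign reversed with spot means (-1.59), normexp correction (-0.22) and all probes summed (-0.39), and the adjusted p ranged from 8.23e-05 to 0.669 over the alternatives. No group held enough arrays for a single array to be judged as far from the others.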

How the results depend on the processing

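Unless stated otherwise, values here are log2 differences or counts at an adjusted p under 0.05. Counts at the study's thresholds use an unadjusted p under 0.05 with a fold change above 2. The cause of each move was not tested. The line differences of miR-96-5p and miR-183-5p kept their sign and their call under 16 of 17 alternatives each, the exception being the 8 arrays with the copied array under its label (-1.01 and -1.15). Their size moved more widely, and with normexp correction that of miR-183-5p was -0.96. With the 8 arrays 6 miRNAs were called in BT474, 6 in SKBR3, 6 between the lines and 5 for the difference in response, with 0 members in each. In BT474 the count of 74 became 25 with no normalization, 14 with the mean of background-subtracted spots, 45 with the line fitted alone, 39 at the study's thresholds and 49 with all probes summed. The SKBR3 count of 36 became 20, 75, 19 and 120 with no normalization, spot means, the line alone and all probes. The count of 209 between the lines became 378 with spot means, 374 with normexp correction and 387 with all probes. The count of 49 for the difference in response became 25 with no normalization, 23 with miRNAs detected on every array and 109 with all probes.

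With the deposited log2 values limma called 0 miRNAs in either line, and 181 and 144 had an unadjusted p under 0.05. The methods' t-test called 3 in BT474 and 0 in SKBR3 after adjustment, and 26 and 11 at the study's own thresholds for p and fold change. That t-test was run on the 305 miRNAs and floored values used here, with the copied array left out. It did not use the random variance model that the paper names for its p-values. Its counts therefore do not stand for the result of the study's own test. The 1 member called in BT474 became 0 with spot means, deposited values, the methods' t-test and all probes. The count stayed at 1 with normexp correction and with miRNAs detected on every array, but the member was then miR-183-5p, as miR-182-3p was not called in the former and not tested in the latter. The 1 member called for the difference in response became 0 with spot means, normexp correction, miRNAs detected on every array and all probes. With miRNAs detected on every array only 2 members were tested. Of these 1 was called in SKBR3, where 28 of the 173 miRNAs were called. Between the lines 2 were called, as were 144 of the 173.

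With the replicate number as a block the counts were 49 in BT474, 18 in SKBR3 and 22 for the difference in response, and no count of members moved. Same-numbered BT474 arrays deviated together with a correlation of 0.297 over miRNAs, but there are only 2 such pairs and the labels do not pair the arrays. Same-numbered BT474 arrays also share a slide column, so that number and position cannot be told apart. Before normalization the trastuzumab array of each such pair had the higher miR-96-5p and miR-183-5p signal. Leaving out each array in turn gave 44 to 80 miRNAs in BT474, 16 to 42 in SKBR3, 187 to 206 between the lines and 29 to 74 for the difference in response, with 1 to 2, 0 to 1, 4 to 5 and 1 to 1 members. The limma difference between the lines, averaged over both treatments, was not fitted without SKBR3 PBS replicate 2, with the deposited values or with each line alone, and the methods' t-test gave none in response.

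The values below reversed in sign or, without single arrays, moved or gained the call with the sign kept. Every reversed value was itself not called. In BT474, miR-183-5p was 0.11 with no normalization; miR-183-3p was 0.013 with spot means, 0.096 with normexp and 0.089 without BT474 trastuzumab replicate 1, and was called at -0.80, sign kept, without replicate 2; miR-96-5p was -0.17 with 75th percentile scaling and -0.020 with normexp. There miR-182-5p was -0.27 with 75th percentile scaling, -0.19 with deposited values, -0.22 without BT474 PBS replicate 1 and -0.16 without BT474 trastuzumab replicate 1. With the sign kept it was 0.35 without BT474 PBS replicate 2 and 0.29 without BT474 trastuzumab replicate 2. In SKBR3, miR-183-5p was 0.12 with no normalization, and miR-96-5p was -0.59 with 8 arrays and -0.13 with deposited values. The median difference in response of the 173 miRNAs detected on all arrays was 0.41 with 75th percentile scaling and 0.13 with no normalization. Relative to it miR-183-5p lay at -0.13 and miR-96-5p at -0.18 under each, so that under these scalings their signs did not turn relative to the median. The median was not taken with spot means or normexp. The difference in response of miR-183-5p was 0.28, 0.0079, 0.071 and 0.061 with 75th percentile scaling, no normalization, spot means and normexp, and that of miR-96-5p was 0.23 and 0.081 with 75th percentile scaling and normexp. That of miR-183-3p was -0.13, -0.20, -0.85 and -0.089 with spot means, normexp, 8 arrays and without BT474 trastuzumab replicate 1, and it was called at 0.80, sign kept, without replicate 2, and that of miR-182-3p was -1.59, -0.22 and -0.39 with spot means, normexp and all probes. The arm ratio of miR-183 was -0.39 with spot means, -0.026 without BT474 PBS replicate 2, -0.35 without BT474 trastuzumab replicate 1 and 0.54, sign kept, without replicate 2. The SKBR3 differences of miR-183-3p and miR-182-3p were 0 at the floor and had no sign to keep. With spot means that of miR-182-3p was -2.22 and was not called. Signal over background limits the 3p arms and miR-182-5p, whose probes were mostly not above it in SKBR3.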
